A study of Drosophila melanogaster with 6 samples.

Results

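The retinal determination genes were examined in the eye imaginal disc, the larval epithelium that gives rise to the compound eye. The group was taken as *ey*, *toy*, *eya*, *so*, *dac*, *eyg*, *toe*, *tsh*, *hth* and *Optix*, and a member was read where the platform annotation assigned a probe set to that gene alone. This found 10 probe sets for 8 of the 10 genes, among 11982 genes read on the arrays. *toy* had 3 probe sets and each of the other members 1. *hth* and *toe* have no probe set named for them here and were not analysed. Wild type was the *w1118* stock and the mutant was *w; mir-998[exc222]*, an allele in which a remnant of a P-element interrupts the *mir-998* hairpin inside the last intron of *dE2f1*. Discs of both genotypes were taken from larvae at the wandering stage that closes larval life, 3 arrays for each genotype. The mutant is a single excision allele, the sources used here do not say how many discs went into each RNA sample, and mature miR-998 was not analysed here. The sample records call the replicates biological without naming separate crosses, so p-values measure the spread between these arrays, which may be partly technical.

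Retinal determination genes encode nuclear proteins that commit the eye field to its fate and act on each other as a network. *ey* and *toy*, the fly relatives of vertebrate Pax6, stand at the top and turn on the homeodomain gene *so* and the coactivator and phosphatase gene *eya*, whose products work as a complex. *dac* acts with them ahead of and within the morphogenetic furrow, the indentation that sweeps across the disc as photoreceptors begin to form. *eyg* and its neighbour *toe* encode Pax proteins linked to growth of the eye field, *tsh* and *hth* hold cells anterior to the furrow in a proliferating state, and *Optix*, a relative of *so*, is expressed ahead of the furrow. Wild type and mutant discs were compared to see whether any of these transcripts differed between the stocks. Disruption of *mir-998* and any other genetic difference between the stocks cannot be told apart with these groups.

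None of the 8 genes passed limma between the genotypes at an adjusted p at or under 0.05, where 1.93% of all genes read were called, 0.968% as higher and 0.960% as lower in the mutant. Levels are on the log2 scale of the rma algorithm, where a difference of 1 is a doubling, and the adjustment was that of Benjamini and Hochberg, made over 18769 probe sets. Each gene was read from its brightest probe set, the one with the highest mean. Read so, with all 6 arrays no member had an unadjusted p under 0.05 either, against 13.9% of all genes. The smallest was 0.0797 for *eya* (adjusted p = 0.511, limma). A dimmer *toy* probe set, described below, had an unadjusted p of 0.000915 (adjusted p = 0.054, limma). On their brightest probe sets all 8 members overlapped between the genotypes. Among all genes, 9.37% had every mutant array above every wild type array and 8.73% had every mutant array below. Of the 8 members 7 had a higher mean in the mutant, compared with 50.1% of all genes, and their median log2 change was 0.23 beside a median of 0.00 over all genes read.

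The median depended on which wild type arrays were used, above all on replicate 3. This array had the lowest value of all 6 for *ey*, *eya*, *so* and *dac*, 4 of the 8 members, as it did for 21.3% of all genes. Without it the median log2 change of the members was 0.03, 5 members had a higher mean in the mutant and 3 had a lower one, and again none was called. The median was 0.14 without wild type replicate 1 and 0.37 without wild type replicate 2. Without wild type replicate 2, 5 members had an unadjusted p under 0.05, where 13.4% of all genes did and 1.13% of all genes were called, and none of the members was called. These were *eyg* at a log2 change of 0.41, *eya* at 0.54, *ey* at 0.47, *dac* at 0.34 and the brightest *toy* probe set at 0.33, with adjusted p from 0.136 for *eyg* to 0.353 for *dac* in limma, and *so* had a change of 0.49 (adjusted p = 0.713). The differences of the members below are given with and without wild type replicate 3, an array picked from these same values. Wild type replicate 1 was the lowest array for 3 other members. Leaving out an array on which a gene is lowest raises its wild type mean and lowers its change by construction. Such lower changes are therefore no test of the genotype difference. With array weights, by which limma gives less weight to arrays that fit the model less well, the median was 0.02.

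**Figure D1:**
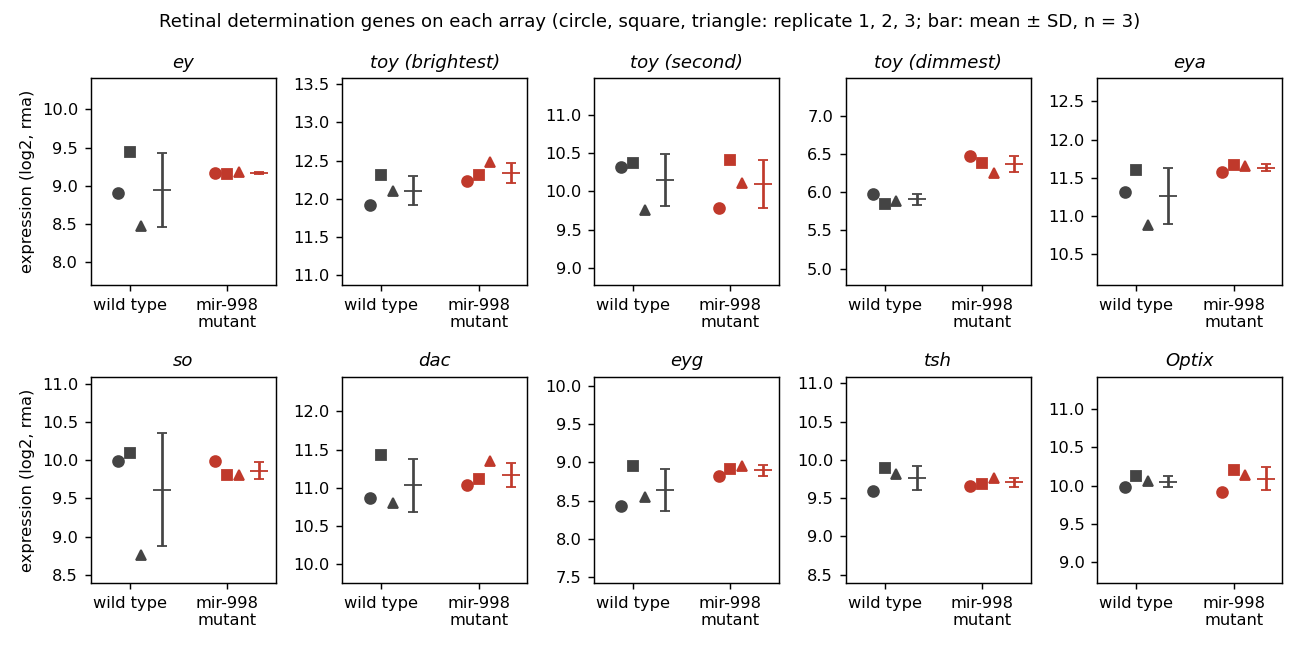
Log2 expression (vertical axis, rma units, the same span in every panel) of the 10 probe sets of the retinal determination genes on the 3 wild type (grey) and 3 *mir-998* mutant (red) arrays; the bar to the right of the points is the mean ± SD (n = 3). The wild type triangle, replicate 3, lies at 8.76 for *so* and 8.48 for *ey*, below every other array, while the mutant arrays of *ey* lie between 9.15 and 9.18.

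Both Pax6 relatives were well above background on their brightest probe sets. The bacterial *trp* control probe sets, which measure signal without a fly transcript, averaged 3.63 to 3.72 on the 6 arrays. In the order of replicates 1, 2 and 3, as for all values that follow, *ey* read 8.91, 9.44 and 8.48 on the wild type arrays and 9.17, 9.15 and 9.18 on the mutant arrays. The wild type arrays spread on both sides of the mutant arrays, which lay close together (wild type 8.94 ± 0.48, mutant 9.17 ± 0.02, SD, n = 3 each). The log2 change of *ey* was 0.22 (standard error, SE, 0.23, 95% interval -0.32 to 0.76, adjusted p = 0.817, limma), and without wild type replicate 3 it was -0.01 (adjusted p = 0.987, limma).

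*toy*, which acts upstream of *ey* in the embryo, was read by 3 probe sets that did not give the same result. The brightest read 11.92, 12.31 and 12.10 on the wild type arrays and 12.23, 12.31 and 12.48 on the mutant arrays, overlapping sets of values with a log2 change of 0.23 (SE 0.12, 95% interval -0.06 to 0.52, adjusted p = 0.554, limma). The second read 10.32, 10.37 and 9.76 on the wild type arrays and 9.78, 10.41 and 10.11 on the mutant arrays, with a change of -0.05 (SE 0.22, adjusted p = 0.971, limma), so that 1 array of each genotype was low. The dimmest was the only probe set of any member whose arrays did not overlap between the genotypes, as in 7.97% of all probe sets for this direction. It read 5.98, 5.85 and 5.88 on the wild type arrays and 6.47, 6.38 and 6.25 on the mutant arrays. Its log2 change of 0.46 (SE 0.08, 95% interval 0.27 to 0.66) missed the threshold at an adjusted p of 0.054 in limma, where 1.60% of all probe sets passed, and it passed under 5 of 17 alternative settings, array weights among them (adjusted p from 0.0246 to 0.238 over the 17, limma). The exact permutation test of its 3 arrays against 3 gave a two-sided p of 0.1, the smallest such a design allows. Wild type replicate 3 bore little on the dimmest or the brightest, whose changes without it were 0.45 and 0.23 (adjusted p = 0.0835 and 0.498, limma). The change of the second moved to -0.25 (adjusted p = 0.571, limma). The deposited table and the annotation do not say which *toy* transcripts each probe set reads.

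*so* had the largest spread of the members. It read 9.99, 10.09 and 8.76 on the wild type arrays and 9.99, 9.80 and 9.80 on the mutant arrays. The first 2 wild type arrays and the mutant arrays lay within 0.3 of each other, and wild type replicate 3 differed by -1.28 from the mean of the other 2 wild type arrays. The wild type SD of *so* was 0.74 (9.61 ± 0.74, n = 3), a spread that 1.28% of all probe sets exceeded, against a mutant SD of 0.11 (9.86 ± 0.11, n = 3). The log2 change of 0.25 (SE 0.34, 95% interval -0.58 to 1.08, adjusted p = 0.884, limma) turned to -0.18 without wild type replicate 3 (SE 0.09, adjusted p = 0.397, limma). Its interval was the only one among the members that reached beyond 1 log2 unit, so that a change of *so* by as much as 2.11-fold is within the error of these arrays.

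*eya*, the partner of *so*, had the largest change among the 8 members, each read from its brightest probe set. It read 11.31, 11.61 and 10.88 on the wild type arrays and 11.58, 11.67 and 11.65 on the mutant arrays, means of 11.27 ± 0.37 and 11.63 ± 0.05 (SD, n = 3 each). Mutant replicates 2 and 3 lay above the wild type range, and mutant replicate 1 lay just below wild type replicate 2, the highest wild type array. The log2 change was 0.37 (SE 0.18, 95% interval -0.06 to 0.79), 1.29-fold, and 0.17 without wild type replicate 3 (adjusted p = 0.48, limma).

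*dac*, a nuclear cofactor related to the vertebrate Ski and Sno proteins, read 10.87, 11.43 and 10.80 on the wild type arrays and 11.04, 11.12 and 11.35 on the mutant arrays. Here wild type replicates 1 and 3 were both low and replicate 2 was the highest of all arrays. The change was 0.14 (SE 0.18, 95% interval -0.30 to 0.57, adjusted p = 0.876, limma) and 0.02 without wild type replicate 3 (adjusted p = 0.974, limma). The name of the *dac* probe set carries the suffix that Affymetrix gives to sets whose probes are shared by several transcripts, so its signal may not be from *dac* alone.

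*eyg* read 8.43, 8.95 and 8.55 on the wild type arrays and 8.82, 8.92 and 8.95 on the mutant arrays, means of 8.64 ± 0.27 and 8.90 ± 0.07 (SD, n = 3 each). Its lowest array was wild type replicate 1. The change of 0.25 (SE 0.14, 95% interval -0.08 to 0.59, adjusted p = 0.586, limma) was 0.21 without wild type replicate 3 (adjusted p = 0.582, limma) and 0.15 without wild type replicate 1 (adjusted p = 0.764, limma).

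*tsh* and *Optix*, which are expressed anterior to the furrow, had the narrowest intervals and the smallest changes of the 8 members, each read from its brightest probe set. *tsh*, a zinc finger gene, read 9.59, 9.90 and 9.81 on the wild type arrays and 9.66, 9.69 and 9.77 on the mutant arrays, so that the mutant arrays fell within the wild type range. Its change was -0.06 (SE 0.09, 95% interval -0.29 to 0.17, adjusted p = 0.90, limma) and -0.04 without wild type replicate 3 (adjusted p = 0.904, limma). *Optix* read 9.98, 10.12 and 10.06 on the wild type arrays and 9.92, 10.21 and 10.14 on the mutant arrays, where the mutant arrays spanned the wild type ones. Its change was 0.04 (SE 0.09, 95% interval -0.19 to 0.26, adjusted p = 0.943, limma) and 0.04 without wild type replicate 3 (adjusted p = 0.901, limma). In *Optix* and *tsh* wild type replicate 3 was neither the lowest nor the highest of the arrays.

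**Figure D2:**
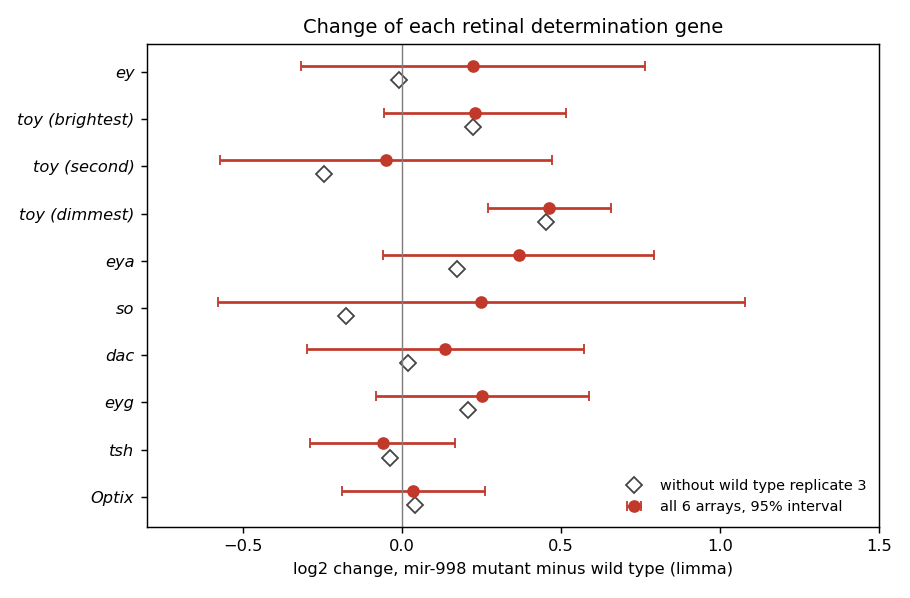
Log2 change of each probe set of the retinal determination genes, mutant minus wild type (horizontal axis, limma), with its 95% interval over all 6 arrays (red) and the change without wild type replicate 3 (open diamonds). Every interval except that of the dimmest *toy* probe set, 0.27 to 0.66, includes 0, and the changes of *ey* and *so* move to -0.01 and -0.18 without this array.

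In wild type the 8 members lay 4.96 to 8.42 log2 units above the *trp* controls, from *eyg* to the brightest *toy* probe set. Probe sets differ in how strongly they bind, so no order of transcript abundance is read from these levels. The spread between arrays was larger in wild type than in the mutant for 7 of the 8 members, *Optix* being the exception, as for 71.6% of all genes. The median SD of the members was 0.31 in wild type and 0.09 in the mutant, beside 0.14 and 0.09 over all genes read. For 7 of the 8 members the lowest of the 6 values was in a wild type array, 4 of them in replicate 3 and 3 in replicate 1, and for *Optix* it was in mutant replicate 1. *ey* and *toy*, both on chromosome 4, had their lowest arrays in wild type replicates 3 and 1.

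Genes of photoreceptor formation were also low on wild type replicate 3. Of 7 eye disc markers read, *ato*, *gl*, *sens*, *ro* and *chp* had their lowest value on that array, and *elav* and *lz* did not. *gl*, a zinc finger gene needed for photoreceptor differentiation, read 10.84, 11.07 and 9.80 on the wild type arrays and 11.05, 11.10 and 10.95 on the mutant arrays. *ato*, the proneural gene that founds the first photoreceptor of each cluster, read 10.04, 9.93 and 9.41 on the wild type arrays and 9.99, 9.99 and 9.92 on the mutant arrays. *elav*, present in all differentiating neurons, read 10.25, 10.83 and 10.54 on the wild type arrays and 10.64, 10.66 and 10.90 on the mutant arrays. Its lowest array was wild type replicate 1, as was that of *lz*. On wild type replicate 3 *elav* and *lz* were still below their own means over the 6 arrays (-0.10 and -0.37). Relative to each gene's mean over the 6 arrays, wild type replicate 3 had a median of -0.47 for the eye disc markers and -0.26 for the retinal determination genes. With RNA from whole discs, fewer cells of a type and less RNA per cell cannot be told apart.

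Markers of the antennal part of the disc and of the head capsule went another way. Each of the 10 markers was read from its brightest probe set. Of the 10, 9 had their lowest value on wild type replicate 1, as did 20.0% of all genes. None of the 10 had it on wild type replicate 3. Their median relative to each gene's mean was -0.46 on wild type replicate 1 and 0.17 on wild type replicate 3. *Lim1*, a homeodomain gene of the antenna, read 9.12, 9.71 and 10.15 on the wild type arrays and 9.56, 9.61 and 9.99 on the mutant arrays, and *mirr*, a gene of the Iroquois complex, at 9.26, 10.13 and 10.36 on the wild type arrays and 9.80, 9.94 and 10.30 on the mutant arrays. Both were thus highest on the array on which *so* and *ey* were lowest. Of the 10 markers these 2 were the furthest above their own means there, by 0.46 and 0.395. *al*, *disco*, *caup* and *pnr* were also above their means on that array. *Dll* was at its mean, and *ss*, *oc* and *ara* were below theirs (-0.325, -0.05 and -0.03). A dimmer *Dll* probe set was instead lowest on wild type replicate 3. It read 9.71, 10.17 and 9.30 on the wild type arrays and 9.80, 9.93 and 9.65 on the mutant arrays. The dimmest *Dll* probe set and the dimmer ones of *Lim1* and *mirr* were lowest on wild type replicate 1. None of the 7 eye disc markers or the 10 antennal and head capsule markers was called between the genotypes (smallest adjusted p = 0.169 and 0.301, limma). The part that tissue makeup has in the differences of the retinal determination genes was not tested.

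**Figure D3:**
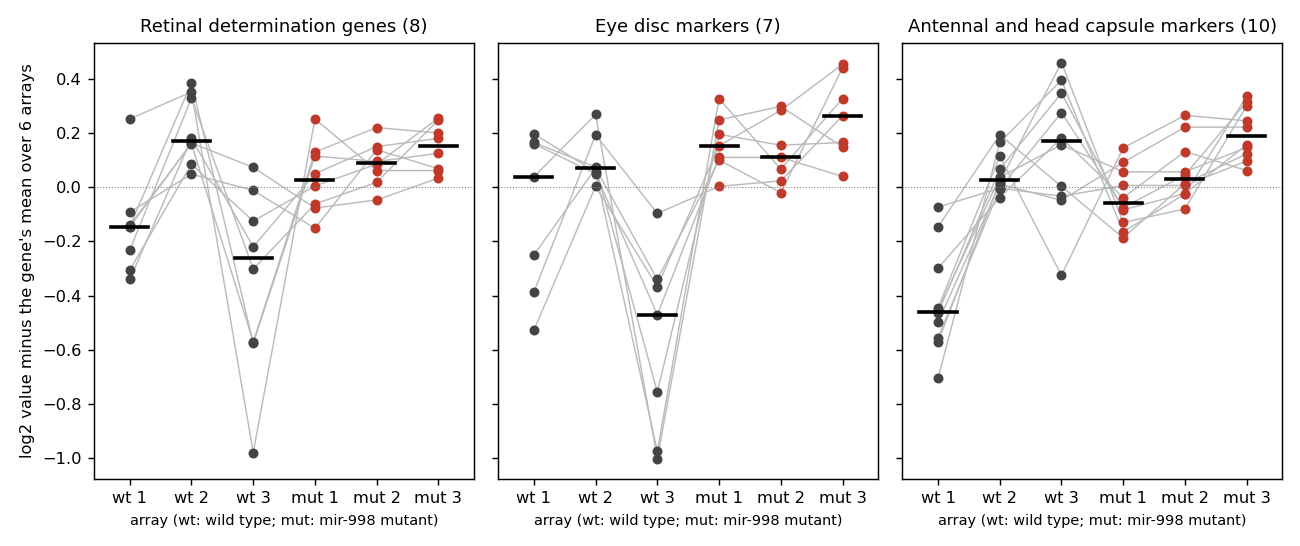
Log2 value of each gene minus its own mean over the 6 arrays (vertical axis) for the 8 retinal determination genes, 7 eye disc markers and 10 antennal and head capsule markers on each wild type (wt, grey) and *mir-998* mutant (mut, red) array; thin lines join the values of a gene and black bars are medians. On wild type replicate 3 the medians are -0.26, -0.47 and 0.17, and on wild type replicate 1 they are -0.15, 0.04 and -0.46.

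Other tissues were checked in the same way. Averaged over the 6 salivary gland markers the arrays ranged from 9.17 to 12.07 in wild type and from 9.47 to 12.91 in the mutant, and over 3 fat body markers from 6.50 to 9.95 and from 6.05 to 9.42. Both sets overlapped between the genotypes. Wild type replicate 3 had the highest glue gene average and the lowest fat body average of the wild type arrays, and wild type replicate 1 the reverse. In the mutant, replicate 1 had the highest average of both sets and replicate 3 the lowest. Averages over 7 hemocyte markers were 7.02 to 7.96 in wild type and 8.21 to 8.55 in the mutant, with *NimC1* called, and over 5 muscle markers 10.90 to 11.20 and 10.37 to 10.80 with none called. Of 4 brain neuroblast markers, *mira*, which encodes a scaffold of dividing neuroblasts, was called at a log2 change of 0.44 (adjusted p = 0.0249, limma). Over the 6 arrays *dpn* ranged from 8.97 to 9.60, *mira* from 7.25 to 7.76, *ase* from 5.0 to 6.1 and *wor*, near background, from 4.18 to 4.45. Averages over 4 glial markers were 10.06 to 10.40 in wild type and 10.40 to 10.65 in the mutant, with none called. Of 5 markers of other discs none was called, and they ranged from 7.49 to 8.39 for *Scr*, 6.52 to 6.86 for *nub*, 5.24 to 5.88 for *vg*, 4.88 to 5.75 for *ap* and 4.02 to 4.33 for *Antp*. The median log2 change of the members was 0.23 in a fit with the mean of the glue genes as a covariate and 0.21 in one with that of the fat body genes. It was 0.16 with the antennal disc markers as the covariate and turned to -0.0412 with the eye disc markers. In the fit with the eye disc markers *so* had a change of -0.49 (adjusted p = 0.35, limma) and *ey* one of -0.25 (adjusted p = 0.497, limma). The eye disc average itself did not overlap between the genotypes, so this fit can remove part of the genotype difference. Its markers include *ato*, *gl* and *lz*, which are also on the list of reported targets below. The averages of the eye disc, brain neuroblast, hemocyte, muscle and glial markers did not overlap between the genotypes. Among single genes, 9.37% had every mutant array above every wild type array and 8.73% had every mutant array below. No such share was computed for averages of marker sets. The glial averages came as close as 10.3975 in wild type and 10.4025 in the mutant. The averages of the eye disc markers were 8.97 to 9.64 in wild type and 9.67 to 9.80 in the mutant. All 7 eye disc markers had a higher mean in the mutant, as 50.1% of all genes did. Without wild type replicate 3 their median log2 change went from 0.35 to 0.11, and *ato* had a change of -0.02. The averages of the neuroblast markers were 6.44 to 6.70 in wild type and 6.83 to 6.88 in the mutant. The part of these tissues in the members' values was not tested.

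Genes that act with, upstream or downstream of the network were read from lists of cofactors and paralogs, signals and reported targets. Of 27 genes listed, 19 were read. None was called, where 1.93% of all genes were. An unadjusted p under 0.05 was found for 2, *ptc* and *lz*, against 13.9% of all genes. Every mutant array lay above every wild type array for 3, *CtBP*, *ptc* and *lz*, against 9.37% of all genes. Of these 19 genes 16 had a higher mean in the mutant, compared with 50.1% of all genes, and the median log2 change was 0.12. Without wild type replicate 3 these were 13 of the 19, compared with 50.2% of all genes, and 0.06. The median of the cofactors and paralogs was 0.10 and without this array -0.015, that of the signals 0.09 and 0.08, and that of the reported targets 0.36 and 0.08.

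Among the 7 cofactors and paralogs read, 6 had their lowest value on wild type replicate 3. *dan*, which encodes a nuclear protein of the retinal network and was chosen to be named after its values were seen, read 9.51, 9.18 and 7.26 on the wild type arrays and 9.37, 9.21 and 8.95 on the mutant arrays. Wild type replicate 3 thus differed by -2.09 from the mean of the other 2 wild type arrays, a larger gap than that of *so*. *gro*, a corepressor that binds So, read 10.22, 10.64 and 10.13 on the wild type arrays and 10.49, 10.50 and 10.48 on the mutant arrays, with a change of 0.16 (SE 0.14, adjusted p = 0.772, limma) and of 0.06 without wild type replicate 3. *CtBP*, another corepressor, read 11.86, 11.89 and 11.83 on the wild type arrays and 11.91, 12.02 and 11.94 on the mutant arrays. Its values did not overlap between the genotypes, and its change of 0.10 was not called (SE 0.06, adjusted p = 0.662, limma). A dimmer *CtBP* probe set had a change of -0.38 (adjusted p = 0.472, limma). Without wild type replicate 3 these changes were 0.08 and -0.54.

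Of the 7 signaling genes read, *hh*, *dpp* and *Egfr* had changes of 0.12, 0.03 and 0.04, and of -0.01, 0.015 and 0.0033 without wild type replicate 3. *ptc*, the Hedgehog receptor and a target of the pathway, read 5.67, 5.71 and 5.38 on the wild type arrays and 5.81, 7.09 and 6.50 on the mutant arrays. The mutant arrays lay above the wild type arrays but differed among themselves by more than 1 log2 unit, and the change of 0.88 (SE 0.31) had an adjusted p of 0.32 in limma and was 0.78 without wild type replicate 3. *tkv*, a receptor for Dpp, had a change of 0.14 (SE 0.09, adjusted p = 0.676, limma), which was 0.09 without that array.

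Of the 5 reported targets read, *lz*, a Runx gene expressed in cells posterior to the furrow that So regulates, had the smallest adjusted p, 0.169 in limma. It read 9.33, 9.86 and 9.49 on the wild type arrays and 10.01, 10.14 and 10.31 on the mutant arrays, with a change of 0.59 (SE 0.15), and of 0.56 without wild type replicate 3, and its values did not overlap. *gl* had a change of 0.46 (SE 0.31, adjusted p = 0.684, limma), and of 0.08 without the low wild type replicate 3. *ct*, a gene of the antenna that So represses in the eye field and that was chosen to be named after its values were seen, read 7.65, 8.55 and 9.13 on the wild type arrays and 8.68, 8.68 and 9.05 on the mutant arrays. It was highest on the array where *so* was lowest, with a change of 0.36 between the genotypes (adjusted p = 0.814, limma) and of 0.70 without that array. *ct* was lowest on wild type replicate 1, as were 9 of the 10 antennal and head capsule markers. There *so* read 9.99, the same as on mutant replicate 1, where *ct* read 8.68. Whether *so* has a part in the values of *ct* was not tested.

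*eya* had both the smallest p and the largest change of the 8 members, each read from its brightest probe set. The genes whose values followed *eya* most closely were *CG2519*, *CG8230* and *Nup358*, the last a nuclear pore gene. Their Pearson correlations with *eya* over the 6 arrays were 0.996, 0.993 and 0.991, the highest among 6853 genes with a mean log2 value of at least 6. *CG2519* read 10.40, 10.54 and 10.17 on the wild type arrays and 10.50, 10.58 and 10.57 on the mutant arrays, low on wild type replicate 3 as *eya* was. With 6 arrays such values are common, since 170 of these genes had a correlation with *eya* above 0.9, and they describe only which genes share its pattern over these arrays.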

How the data were processed

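Eye disc RNA of 3 wild type and 3 *mir-998* mutant samples was measured on Affymetrix Drosophila arrays. The authors deposited log2 values for 18952 probe sets, background-corrected, normalized and summarized by rma in the affy package, to 2 decimals. This brings all arrays to 1 distribution and removes shifts shared by all genes. No raw intensity was used. Without 183 Affymetrix controls, 18769 probe sets entered a linear model in limma 3.58.1 (R 4.3.3, lmFit, then eBayes at default settings), mutant against wild type, without covariates. Arrays have no read depth, and their number limits the precision. Of the probe sets 13647 had 1 gene in the platform annotation (symbols updated through RefSeq Release 6), 402 had several and 4720 are unnamed here. A gene was read from its probe set with the highest mean. The members and lists were chosen with earlier results of these data known, and of the cofactors, signals and targets each list's called genes or otherwise the 2 with the smallest p are named, as are all members and the 3 genes most like a member. Marker genes and other list genes named were chosen after their values were seen. The alternatives were other normalizations, variance priors, weighted arrays, dim probe sets left out, a replicate block, each array left out, marker covariates, other ways to read genes with several probe sets and other thresholds.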

Additional observations from a re-analysis of the deposited data

How the results depend on the processing

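The count of 0 called retinal determination genes at an adjusted p was the same under every alternative run, in limma. At an unadjusted p under 0.05 it was also 0 with all 6 arrays, but 3 of 18 alternatives gave members. Without wild type replicate 2 there were 5, where 13.4% of all genes had such a p. *so* alone had one with the eye disc markers as a covariate (15.5% of all genes). *toy* alone had one when read from the probe set with the largest change (14.8% of all genes). The median log2 change of the members, 0.23, was 0.0178 with array weights and 0.03 to 0.37 with 1 array left out. The ends were the fits without wild type replicate 3 and without wild type replicate 2. It turned to -0.0412 with the eye disc markers as a covariate, an alternative added with the antennal markers after the data were seen. The average of the eye disc markers did not overlap between the genotypes, so this fit can remove part of the genotype difference. The cause of the turn was not tested. The dimmest *toy* probe set, at 0.46 (adjusted p = 0.054, limma), passed the threshold at 0.50 after a further quantile normalization (adjusted p = 0.0448), at 0.49 with array medians subtracted (0.0496), at 0.50 with array weights (0.0279), at 0.49 with the fat body markers (0.0246) and at 0.51 with the antennal markers (0.0295); over its alternatives the adjusted p reached 0.238. With the replicate number as a block the median was 0.23 and no member was called. Deviations of same-numbered arrays correlated at 0.19, -0.23 and 0.29 for replicates 1, 2 and 3, so the numbers were not taken as pairs. Values near the *trp* controls cannot show how low a transcript is, and no member was that dim.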
